A study of Mus musculus with 22 samples.

Results

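The 50 genes described here encode nuclear-encoded subunits of the mitochondrial respiratory chain and of ATP synthase, and were taken by symbol from the deposited tables of messenger RNA (mRNA) and of promoter acetylation. They are 50 of the 23227 genes in the mRNA table and 50 of the 23167 genes in the promoter table: 27 belong to complex I, 4 to complex II, 7 to complex III, 8 to complex IV and 4 to complex V. The series holds 22 liver samples of wild type C57BL/6J mice. Of these, 3 mRNA libraries and 3 libraries of histone H3 acetylated at lysine 27 (H3K27ac), a mark of active promoters, came from mice given a 16 week high-fat diet (HFD) from 8 weeks of age. The chow livers, again 3 libraries of each kind, came from mice kept on a chow diet. All mice were 24 weeks old and had fasted overnight, and the livers were frozen between cooled clamps and ground to powder, so each library reads whole liver. Whether equal replicate numbers stand for the same animal is not stated, and p-values set the diet difference against the spread between these libraries. A batch that followed diet cannot be told apart from diet.

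The respiratory chain passes electrons from NADH (through complex I) and from succinate (through complex II) to ubiquinone, then through complex III and cytochrome c to complex IV, which reduces oxygen. Complexes I, III and IV pump protons across the inner mitochondrial membrane, and ATP synthase, called complex V, uses their return to make ATP. In liver this chain takes up the electrons released by fatty acid oxidation and supplies the ATP for gluconeogenesis and urea synthesis, both of which run during a fast. The subunits encoded in mitochondrial DNA were not analysed here.

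The mRNA libraries held 20977959 to 23948777 counts in HFD livers and 19016275 to 45741794 counts in chow livers, and the promoter libraries held 1967613 to 3788577 counts in HFD livers and 2376133 to 4964403 counts in chow livers. Levels are given as CPM (counts scaled to a common library size) after TMM scaling, which corrects for differences in library composition, and are compared between livers, not between genes. The smallest member count was 530 reads in an mRNA library and 58 reads in a promoter library. The hepatocyte marker list summed to 101011 to 124210 CPM in HFD livers and 107148 to 113373 CPM in chow livers; of its 10 genes Cps1, Tat and Ass1 fell (log2 fold changes -1.19, -0.50 and -0.48) and Ttr rose (0.59). Among markers of other liver cells, Col1a1 and Col3a1 (2 of 7 stellate cell markers) and Cd68 (1 of 10 Kupffer cell and macrophage markers) were higher in HFD livers, with log2 fold changes of 2.65, 1.88 and 0.86, and Dcn (stellate cell) was lower (-0.56). Markers of the exocrine pancreas moved with diet: their sum was at most 237 CPM in HFD livers, against 405 to 2435 CPM in chow livers with chow replicate 1 the highest, and 17 of 19 tested markers were lower in HFD livers, with no marker at 0 in all libraries. Striated muscle markers summed to 104 CPM in chow replicate 1 and to at most 0.537 CPM in each other library, with Myh7 at 0 in all 6. The part of the RNA behind these markers in the member differences was not tested, and in whole tissue fewer cells of a type and less RNA per cell cannot be told apart.

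Transcripts of the chain and of ATP synthase moved by small amounts and in both directions after the high-fat diet. All 50 members passed the filter on low counts. Of them 13 fell, 4 rose and 33 did not pass an adjusted p of 0.05 (edgeR's quasi-likelihood test with Benjamini-Hochberg adjustment over 12909 genes), against 17.6% of all tested genes called lower and 18% called higher, 35.6% in either direction. The share of members that fell was 26% and the share that rose was 8%. Member fold changes on the log2 scale, HFD over chow, ran from -0.51 to 0.39, and no member changed as much as 2-fold, a size that 7.83% of all tested genes passed. The median over the 50 members was -0.09 and over all tested genes 0.02; under scaling by total counts these medians were -0.02 and 0.10. In 16 members every HFD liver lay below every chow liver (25.5% of all tested genes), and in 7 every HFD liver lay above (25.1%).

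The members that fell were spread over complexes I, II, III and V, and none was among the 8 grouped as complex IV. Ndufa4, which fell, was counted with complex I by its name, although its protein has since been assigned to complex IV. The counts, medians and sums by complex keep that grouping. Complex I had 6 lower and 3 higher among 27, complex II 1 lower and 1 higher among 4, complex III 4 lower among 7, and complex V 2 lower among 4. The median log2 fold change was -0.07 for complex I, 0.08 for complex II, -0.29 for complex III, -0.08 for complex IV and -0.22 for complex V. Under scaling by total counts the complex I median was 0.01, which turns its sign, and the others were 0.16, -0.22, -0.0034 and -0.15 for complexes II, III, IV and V. Without HFD replicate 1 the medians of complexes I and IV were -0.15 and -0.15, and without HFD replicate 3 they were 0.01 and -0.03. Without chow replicate 3 the complex II median was 0.03 and that of complex IV -0.12; without chow replicate 1 these were 0.13 and -0.05. The median over all members was -0.17 without HFD replicate 1, -0.03 without HFD replicate 3, -0.06 without chow replicate 1 and -0.14 without chow replicate 3. Leaving out chow replicate 1, the library with the muscle markers and the most pancreas markers, left 8 members lower and 5 higher, with 1 lower in complex III and 0 in complex V. In an edgeR fit with the mean log2 CPM of the pancreas list, which follows diet, as a covariate, no member was called, with a lowest adjusted p of 0.0689. In that fit the median fold change was -0.13 over the members, -0.41 for complex III, -0.17 for complex IV and -0.28 for complex V.

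**Figure D1:**
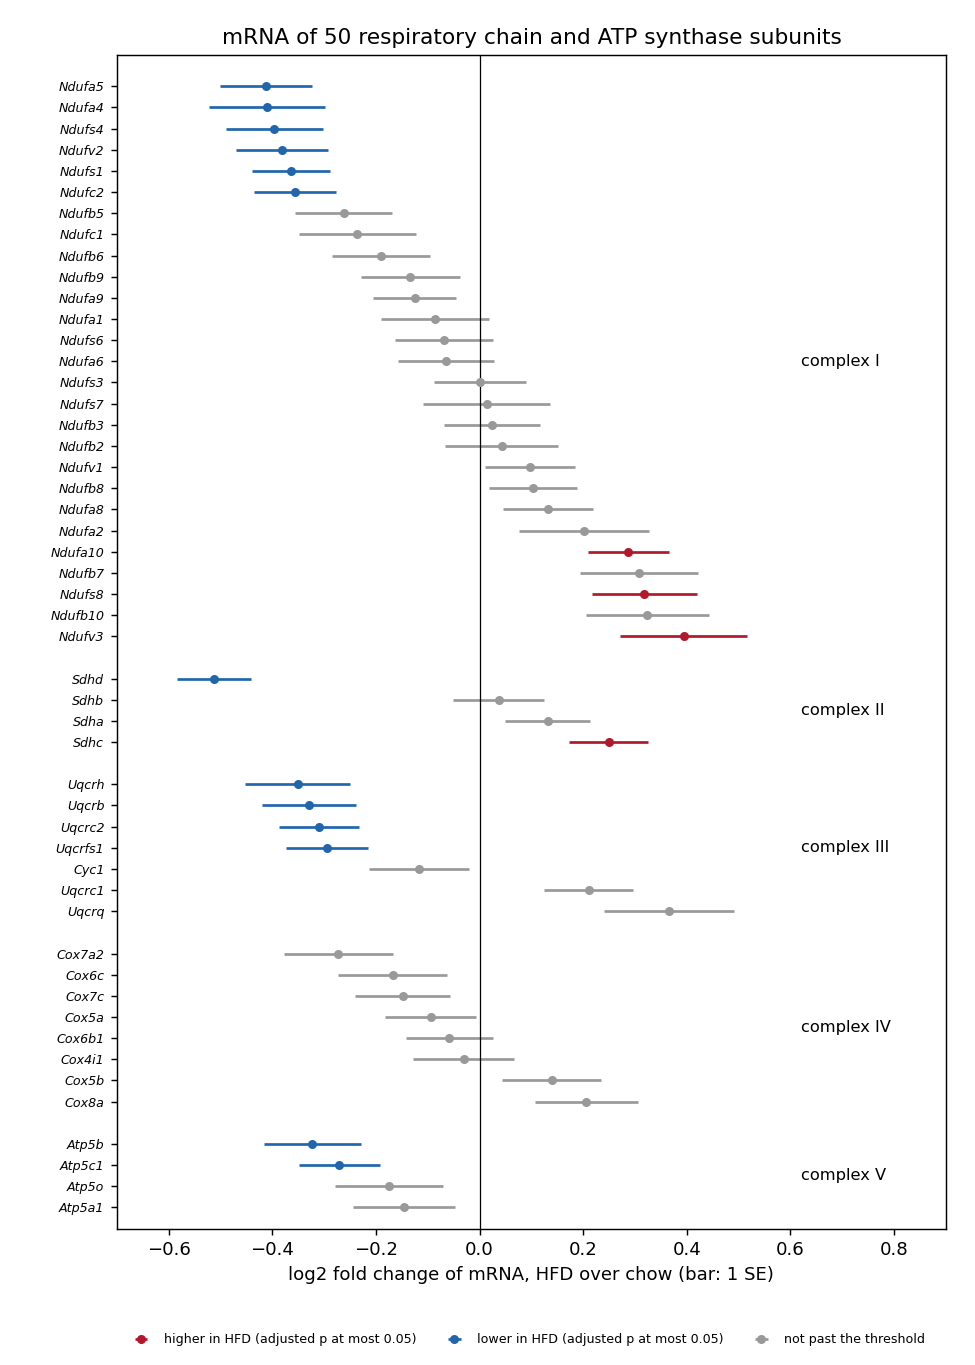
mRNA log2 fold change, HFD over chow, of each of the 50 members (points, with 1 SE as bars), by complex from top to bottom. The 13 members called lower lie between -0.51 and -0.27 and the 4 called higher between 0.25 and 0.39, while the 33 others straddle 0.

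The sequences around the start of the members with the largest calls are printed next, because the acetylation results below concern these promoters. They are the RefSeq windows of 300 bases, 250 before and 50 after an annotated transcription start, on build GRCm38.p6, written 5′ to 3′ on the strand of the gene. The deposited files use mm9 and do not state how wide their promoters are, so the windows may not coincide with the counted regions. Sdhd and Ndufa5 had the largest called falls in mRNA among members with a sequence, and Ndufv3 and Ndufs8 the largest called rises. Cox5b was added after its values were seen, because its promoter had the lowest acetylation fold change. Capitals mark CCGGAAG or its reverse complement, letters of the core bound by ETS factors such as GABP, a regulator of many respiratory genes. Ndufa5 has another annotated start in RefSeq, whose overlapping window is not printed.
Sdhd, chr9:50603800-50604099, minus strand: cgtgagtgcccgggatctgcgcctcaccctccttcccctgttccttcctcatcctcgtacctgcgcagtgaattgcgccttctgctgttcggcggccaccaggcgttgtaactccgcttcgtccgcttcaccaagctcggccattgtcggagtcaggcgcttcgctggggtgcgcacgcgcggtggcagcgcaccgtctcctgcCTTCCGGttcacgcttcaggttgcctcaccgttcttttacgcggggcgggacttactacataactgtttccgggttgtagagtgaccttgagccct
Ndufa5, chr6:24527477-24527776, minus strand: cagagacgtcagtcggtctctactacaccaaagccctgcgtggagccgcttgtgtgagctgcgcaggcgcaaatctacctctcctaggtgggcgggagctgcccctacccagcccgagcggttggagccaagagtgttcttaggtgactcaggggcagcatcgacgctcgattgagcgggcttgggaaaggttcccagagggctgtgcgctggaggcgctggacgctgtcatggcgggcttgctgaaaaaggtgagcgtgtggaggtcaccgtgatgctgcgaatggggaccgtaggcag
Ndufv3, chr17:31519865-31520164, plus strand: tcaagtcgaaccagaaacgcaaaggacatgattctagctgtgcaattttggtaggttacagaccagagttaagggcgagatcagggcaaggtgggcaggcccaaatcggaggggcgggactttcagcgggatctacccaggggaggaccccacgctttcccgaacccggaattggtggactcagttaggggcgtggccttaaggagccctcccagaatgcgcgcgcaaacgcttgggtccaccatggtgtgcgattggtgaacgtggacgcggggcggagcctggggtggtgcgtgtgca
Ndufs8, chr19:3912725-3913024, minus strand: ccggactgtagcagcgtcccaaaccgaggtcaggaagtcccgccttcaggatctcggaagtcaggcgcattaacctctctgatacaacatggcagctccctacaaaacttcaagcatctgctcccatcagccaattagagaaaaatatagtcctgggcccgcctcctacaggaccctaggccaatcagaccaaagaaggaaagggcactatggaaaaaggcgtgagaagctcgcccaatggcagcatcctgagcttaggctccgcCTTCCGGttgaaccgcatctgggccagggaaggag
Cox5b, chr1:36691237-36691536, plus strand: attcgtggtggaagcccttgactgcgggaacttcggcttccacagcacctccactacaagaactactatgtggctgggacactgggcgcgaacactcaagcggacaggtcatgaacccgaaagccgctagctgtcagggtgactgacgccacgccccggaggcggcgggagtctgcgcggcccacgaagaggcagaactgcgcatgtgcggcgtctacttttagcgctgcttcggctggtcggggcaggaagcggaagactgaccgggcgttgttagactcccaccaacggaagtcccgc

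The ETS letters stand at -46 in the Sdhd window and at 16 bases past the start in the Ndufs8 window, so a member that fell and a member that rose both hold them. RefSeq windows were matched for 39 of the 50 members, as 41 windows, and 4 motifs were searched on both strands. The ETS letters CCGGAAG were in 9 of the 41 windows (22.0%) and in 8.86% of all 32851 windows of this length. The NRF1 letters GCATGCGC were in 4 member windows (9.76%) and 2.71% of all windows. The YY1 letters AAGATGGC were in 6 (14.6%) and 2.75%, and the CREB letters TGACGTCA in 3 (7.32%) and 1.79%. No string contains another, and CCGGAAG and AAGATGGC can share the letters AAG where they meet. By mRNA call, the ETS letters were in 2 of 10 matched members that fell (Sdhd, Uqcrh), 1 of 3 that rose (Ndufs8) and 6 of 26 that were not called, and the NRF1 letters were in 4 uncalled members (Ndufa6, Ndufa8, Sdhb, Uqcrc1). A match is a description of the letters, not a bound site. Member windows had a median GC content of 59%, against 52.7% over all windows.

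Complex I, the NADH dehydrogenase, had members that fell and members that rose in both of its arms. Ndufa5, an accessory subunit of the arm that reaches into the matrix, had 34.4, 30.2 and 28.6 CPM in HFD livers, against 42.2, 41.1 and 40.6 CPM in chow livers. All 3 HFD livers lay below all chow livers (log2 fold change -0.41, SE 0.0890, adjusted p = 0.00844). Ndufs4, an accessory subunit needed for a stable NADH-oxidising module, had 53.1, 45.3 and 42.5 CPM in HFD livers, against 61.4, 61.9 and 62.1 CPM in chow livers. The chow livers were nearly equal and the HFD livers all lay below them (log2 fold change -0.40, SE 0.0944, adjusted p = 0.0128). Ndufa4, named for complex I although its protein has since been assigned to complex IV, had 251, 194 and 193 CPM in HFD livers, against 274, 291 and 283 CPM in chow livers. HFD replicate 1 was nearer to the chow livers than the other HFD livers were, and the groups did not overlap (log2 fold change -0.41, SE 0.112, adjusted p = 0.0224).

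Among the core subunits of complex I that carry iron-sulfur clusters or flavin, the directions were split. Ndufv2, which holds a binuclear iron-sulfur cluster next to the flavin, averaged 72.2 ± 7.54 CPM in HFD livers and 94.0 ± 1.65 CPM in chow livers (SD, n = 3 each) and fell (log2 fold change -0.38, SE 0.0885, adjusted p = 0.0115). Ndufs1, the largest subunit and a carrier of iron-sulfur clusters, averaged 96.7 ± 4.87 CPM in HFD livers and 124 ± 5.13 CPM in chow livers (SD, n = 3 each) and also fell (log2 fold change -0.36, SE 0.0746, adjusted p = 0.00672). Ndufs8, which carries the clusters that lead towards ubiquinone, had 57.2, 51.6 and 46.5 CPM in HFD livers, against 45.2, 40.5 and 38.7 CPM in chow livers. The lowest HFD liver stood just above the highest chow liver, and the rise passed the test (log2 fold change 0.32, SE 0.102, adjusted p = 0.0404). Ndufv1, the subunit that binds NADH and the flavin, averaged 155 ± 8.61 CPM in HFD livers and 144 ± 12.3 CPM in chow livers (SD, n = 3 each), with overlapping groups (log2 fold change 0.10, SE 0.0868, adjusted p = 0.410). Ndufs3 and Ndufs7, core subunits near the ubiquinone site, had log2 fold changes of 0.00 and 0.01 with 95% intervals of -0.20 to 0.20 and -0.27 to 0.29. In a ratio of counts library depth cancels, but a library effect particular to 1 gene does not. The ratio of Ndufv2 to Ndufv1 counts was 0.490, 0.443 and 0.465 in HFD livers, against 0.588, 0.694 and 0.680 in chow livers, 28.7% lower on average with no overlap. This pair and the pairs below were chosen after their values were seen. In the authors' deposited table of mRNA differences, Ndufv2 and Ndufv1 had nearly equal log2 fold changes, -0.12 and -0.11, and neither was called.

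Accessory subunits of complex I also rose. Ndufv3, a small accessory subunit of the NADH-oxidising module, had 71.2, 57.2 and 53.4 CPM in HFD livers, against 50.0, 41.6 and 46.5 CPM in chow livers. All HFD livers lay above all chow livers, with HFD replicate 1 the highest (log2 fold change 0.39, SE 0.123, adjusted p = 0.0371). Ndufa10, an accessory subunit of the membrane arm related to nucleoside kinases, had 129.6, 121 and 126 CPM in HFD livers, against 111, 98.3 and 99.5 CPM in chow livers. Its HFD livers were close together and above every chow liver (log2 fold change 0.29, SE 0.0776, adjusted p = 0.0213). Ndufc2, a membrane-arm subunit, averaged 37.4 ± 2.23 CPM in HFD livers and 47.8 ± 1.57 CPM in chow livers (SD, n = 3 each) and fell (log2 fold change -0.36, SE 0.0789, adjusted p = 0.00943). The other 18 members of complex I were not called, with log2 fold changes from -0.26 (Ndufb5) to 0.32 (Ndufb10) and adjusted p from 0.0595 to 0.995. Among them Ndufb5, with every HFD liver lower, and Ndufb7, with every HFD liver higher, had groups that did not overlap (adjusted p = 0.0595 and 0.0653, edgeR's quasi-likelihood test).

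Some calls in complex I were lost when a single library was left out. Those of Ndufa5, Ndufc2 and Ndufs1 stayed past the threshold without any 1 library, with adjusted p up to 0.0376, 0.0391 and 0.0360 in edgeR's test. Ndufs4 lost its call without HFD replicate 2 (adjusted p = 0.0517) and Ndufv2 without chow replicate 2 (0.0503). Ndufa4 lost its call without HFD replicate 2, chow replicate 2 or chow replicate 3 (adjusted p up to 0.0895). Ndufa10 lost its call without chow replicate 2 or 3 (up to 0.102). The rises of Ndufs8 and Ndufv3 were lost without HFD replicate 1, HFD replicate 2, chow replicate 2 or chow replicate 3 (adjusted p up to 0.154 and 0.140).

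Complex II, succinate dehydrogenase, oxidises succinate within the tricarboxylic acid cycle, and its membrane anchor is formed by Sdhc and Sdhd. These partners moved in opposite directions. Sdhd, the small anchor subunit, had 167, 166 and 168 CPM in HFD livers, against 241, 227 and 247 CPM in chow livers. The HFD livers were nearly equal and far below the lowest chow liver, and this was the largest change of any member (log2 fold change -0.51, SE 0.0713, adjusted p = 0.00122, edgeR's quasi-likelihood test). Sdhc, the large anchor subunit, had 171, 158 and 157 CPM in HFD livers, against 144, 134 and 131 CPM in chow livers. Every HFD liver lay above every chow liver (log2 fold change 0.25, SE 0.0761, adjusted p = 0.0343). The ratio of Sdhd to Sdhc counts was 0.976, 1.05 and 1.07 in HFD livers, against 1.67, 1.70 and 1.89 in chow livers, 41.1% lower on average.

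Sdha, the flavoprotein that oxidises succinate, had 537, 554 and 573 CPM in HFD livers, against 522, 512 and 486 CPM in chow livers. Its groups did not overlap, with HFD livers higher, but the difference did not pass the test (log2 fold change 0.13, SE 0.0823, adjusted p = 0.245). Sdhb, the iron-sulfur subunit, had 180.3, 167 and 173 CPM in HFD livers, against 188, 163 and 157 CPM in chow livers. Its groups overlapped (log2 fold change 0.04, SE 0.0883, adjusted p = 0.770; 95% interval -0.17 to 0.24). The call for Sdhd held without any 1 library (adjusted p up to 0.00846), while that for Sdhc was lost without HFD replicate 1, HFD replicate 2, chow replicate 2 or chow replicate 3 (up to 0.153). The transcription start of Sdhd lies 52 bases from that of Timm8b, a chaperone of the mitochondrial intermembrane space read from the other strand, whose mRNA log2 fold change was -0.04 (adjusted p = 0.784).

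**Figure D2:**
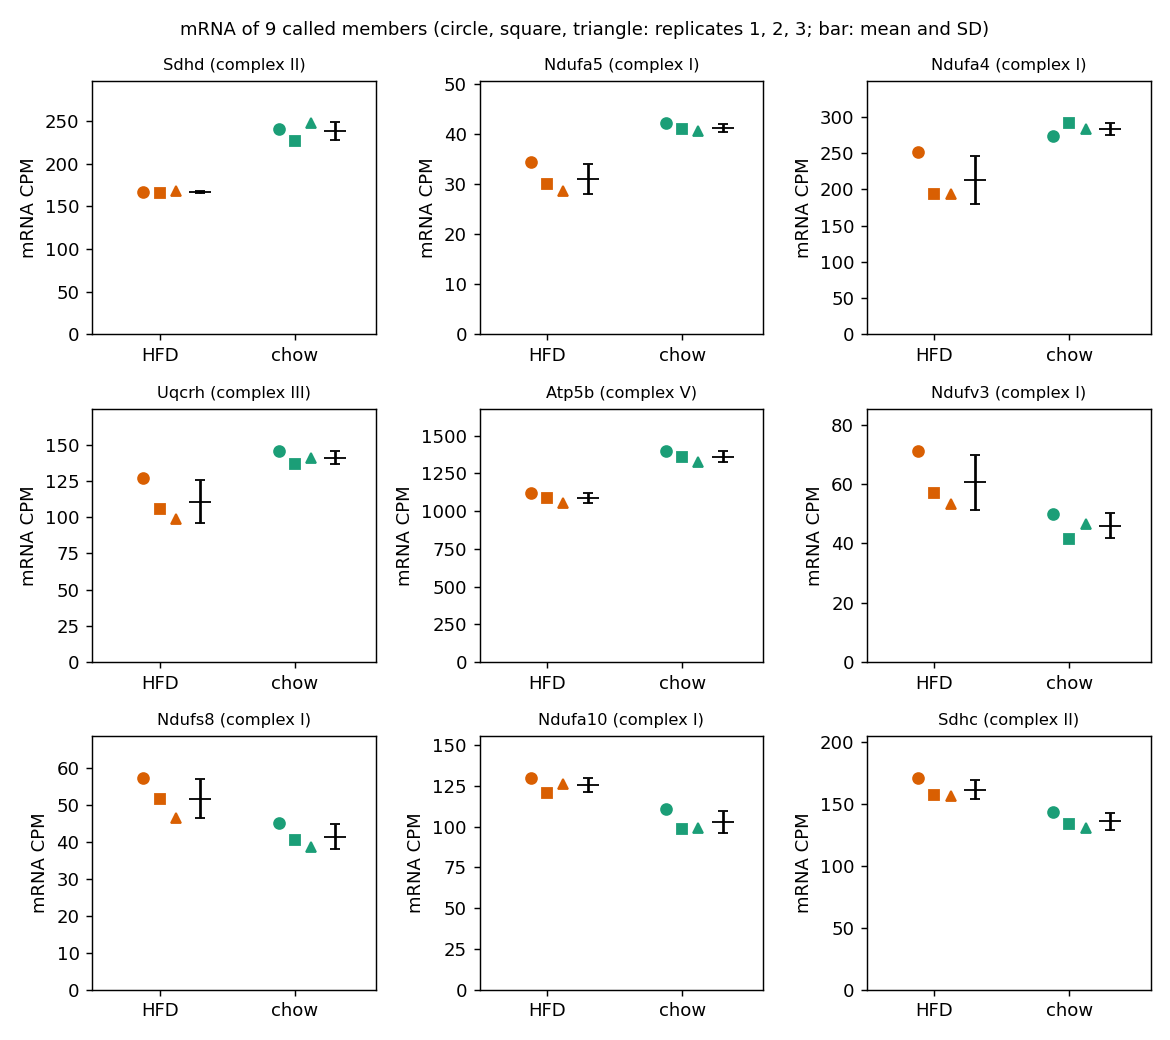
mRNA level in CPM of 9 called members in each library (circles, squares and triangles for replicates 1, 2 and 3), with the mean and SD as black bars, HFD livers left and chow livers right in each panel. The upper 5 panels in reading order (Sdhd, Ndufa5, Ndufa4, Uqcrh, Atp5b) show HFD livers below chow livers, and the last 4 (Ndufv3, Ndufs8, Ndufa10, Sdhc) show HFD livers above.

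Complex III, the cytochrome bc1 complex, had 4 of 7 members lower and 0 higher in edgeR's test, and DESeq2 called 4 lower and 1 higher. Uqcrh, the hinge protein that contacts cytochrome c1, had 127, 106 and 98.8 CPM in HFD livers, against 146, 137 and 141 CPM in chow livers. HFD livers varied more than chow livers and lay below all of them (log2 fold change -0.35, SE 0.102, adjusted p = 0.0281). Uqcrb, a small subunit near the ubiquinone site, had 106, 88.1 and 88.4 CPM in HFD livers, against 118, 122 and 116 CPM in chow livers. The groups did not overlap, with HFD replicate 1 the nearest to the chow livers (log2 fold change -0.33, SE 0.0907, adjusted p = 0.0230). Uqcrc2, a core protein on the matrix side, had 244, 217 and 224 CPM in HFD livers, against 281, 287 and 281 CPM in chow livers. All HFD livers were lower (log2 fold change -0.31, SE 0.0769, adjusted p = 0.0151). Uqcrfs1, the Rieske iron-sulfur protein that takes electrons from ubiquinol, averaged 175 ± 11.8 CPM in HFD livers and 215 ± 6.16 CPM in chow livers (SD, n = 3 each) and fell (log2 fold change -0.29, SE 0.0787, adjusted p = 0.0205).

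The remaining members of complex III were not called. Uqcrq, a small subunit beside cytochrome b, averaged 154 ± 26.7 CPM in HFD livers and 119 ± 7.20 CPM in chow livers (SD, n = 3 each) (log2 fold change 0.37, SE 0.125, adjusted p = 0.0511). Uqcrc1, the other matrix core protein, averaged 247 ± 11.9 CPM in HFD livers and 213 ± 17.0 CPM in chow livers (SD, n = 3 each), with every HFD liver above every chow liver (log2 fold change 0.21, SE 0.0859, adjusted p = 0.0882). Cyc1, the cytochrome c1 that passes electrons to cytochrome c, had overlapping groups (log2 fold change -0.12, SE 0.0959, adjusted p = 0.372). The authors' deposited table of mRNA differences called Cyc1 lower, with a log2 fold change of -0.38. The ratio of Uqcrc2 to Uqcrc1 counts was 0.936, 0.897 and 0.938 in HFD livers, against 1.21, 1.38 and 1.41 in chow livers, 30.7% lower on average with no overlap. Calls in complex III were lost when single libraries were left out: 0 of the 4 were kept without HFD replicate 2 or without chow replicate 2, 1 without chow replicate 1, 2 without HFD replicate 3, 3 without chow replicate 3 and 4 without HFD replicate 1. The complex III median stayed between -0.34 and -0.24 in these fits, and under all alternatives tried the log2 fold change was -0.47 to -0.28 for Uqcrh, -0.45 to -0.26 for Uqcrb, -0.41 to -0.24 for Uqcrc2 and -0.41 to -0.22 for Uqcrfs1. RefSeq holds pseudogenes named after Uqcrh, Cox5b, Cox7c and Atp5c1, and none of them is a row of the count table. Reads of these members may be shared with copies, so their values are uncertain. Copies under other names were not searched for, so further members may share reads too. Pseudogenes with other names overlap the spans of Uqcrh (Gm12854) and Cox7a2 (Gm51685). In RefSeq the spans of 8 members overlap that of another gene with a row in the count table, and reads in such an overlap cannot be assigned without the strand. Ndufv2 overlaps Ankrd12, which rose (log2 fold change 0.53, adjusted p = 0.00728), and Cox7a2 overlaps Tmem30a, which fell (log2 fold change -0.79, adjusted p = 0.000485). The others are Ndufa1, Ndufa2, Uqcrc2, Uqcrq, Atp5a1 and Atp5b, whose overlapping genes were not called or had too few counts to test.

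Complex IV, cytochrome c oxidase, had no called member among the 8 grouped here, in edgeR's test or in DESeq2. Ndufa4, which fell, is not among these 8. Of the 8, only Cox7a2 had an unadjusted p under 0.05. Without HFD replicate 1, edgeR called Cox7a2, Cox6c and Cox7c lower (log2 fold changes -0.38, -0.29 and -0.24, adjusted p = 0.0145, 0.0165 and 0.0445). Cox8a was called higher under scaling by total counts and without HFD replicate 3 (log2 fold changes 0.28 and 0.28, adjusted p = 0.0298 and 0.0453). Cox4i1, the regulatory subunit that carries the most reads of the 8, had 325, 264 and 269.8 CPM in HFD livers, against 303, 284 and 291 CPM in chow livers. The chow livers lay within the range of the HFD livers (log2 fold change -0.03, SE 0.0974, adjusted p = 0.829; 95% interval -0.25 to 0.19). Cox7a2, a small subunit whose relative Cox7a1 serves in muscle, averaged 87.0 ± 12.2 CPM in HFD livers and 105 ± 1.94 CPM in chow livers (SD, n = 3 each), with all HFD livers lower (log2 fold change -0.27, SE 0.105, adjusted p = 0.0740). The other members, Cox5a, Cox5b, Cox6b1, Cox6c, Cox7c and Cox8a, had log2 fold changes from -0.17 for Cox6c to 0.21 for Cox8a, with overlapping groups. The 95% intervals over complex IV reached from -0.51 to 0.43.

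The 4 members grouped as complex V, ATP synthase, were lower in HFD livers when summed. The sum was 2522, 2363 and 2384 CPM in HFD livers, against 2993, 2843 and 2745 CPM in chow livers, 15.3% lower on average and without overlap. Most of it came from Atp5b and Atp5a1. Of 14 further genes listed with complex V, 4 fell and 2 rose, with a median log2 fold change of -0.08. Over all tested genes 17.6% fell and 18% rose. Atp5b, the catalytic beta subunit of the head, had 1121, 1085 and 1057 CPM in HFD livers, against 1399, 1359 and 1324 CPM in chow livers. All HFD livers were below all chow livers (log2 fold change -0.32, SE 0.0939, adjusted p = 0.0286). Atp5c1, the gamma subunit of the rotating stalk, had 211, 188 and 188 CPM in HFD livers, against 239, 237 and 231 CPM in chow livers. It also fell (log2 fold change -0.27, SE 0.0777, adjusted p = 0.0273). Atp5a1, the alpha subunit of the head, had 1046, 973 and 1020.4 CPM in HFD livers, against 1199, 1109 and 1054 CPM in chow livers. Its groups did not overlap but the test was not passed (log2 fold change -0.15, SE 0.0984, adjusted p = 0.278). Atp5o, the stalk subunit OSCP that holds the head in place, had 145, 117 and 119 CPM in HFD livers, against 156, 138 and 136 CPM in chow livers, with overlapping groups (log2 fold change -0.17, SE 0.104, adjusted p = 0.222).

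The ratio of Atp5b to Atp5a1 counts was 1.07, 1.12 and 1.04 in HFD livers, against 1.17, 1.23 and 1.26 in chow livers, 11.6% lower on average. The calls for Atp5b and Atp5c1 were lost without HFD replicate 2 or any 1 chow library (adjusted p up to 0.102 and 0.104), that of Atp5c1 also without HFD replicate 3, and that of Atp5b also under scaling by total counts. Atp5c1 starts 102 bases from Kin, a DNA-binding protein gene read from the other strand, which also fell (log2 fold change -0.77, adjusted p = 0.000797).

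Sums over the other complexes overlapped between diets. Complex I members summed to 2343, 2023 and 1962 CPM in HFD livers, against 2303, 2183 and 2153 CPM in chow livers. Complex II members summed to 1055, 1045 and 1071 CPM in HFD livers, against 1095, 1035 and 1020.2 CPM in chow livers. In both, the highest HFD liver was above the lowest chow liver. Complex III members summed to 1299.6, 1151 and 1122 CPM in HFD livers, against 1342, 1272 and 1247 CPM in chow livers, and complex IV members to 1332, 1130.5 and 1092 CPM in HFD livers, against 1262, 1200.4 and 1184 CPM in chow livers. HFD replicate 1 was the highest HFD liver in both sums, and in complex IV it was the highest of all 6 livers. Over all 50 members the sum was 8553, 7713 and 7631 CPM in HFD livers, against 8995, 8533 and 8349 CPM in chow livers, 7.65% lower on average with overlap. Without TMM scaling the difference was smaller, at 2.79%: the members took 0.814%, 0.821% and 0.813% of all counts in HFD livers, against 0.871%, 0.831% and 0.817% in chow livers. The 16 members classed as catalytic core, the redox and anchor subunits of complexes I to III with the 4 of ATP synthase, summed to 4533, 4264 and 4319.8 CPM in HFD livers, against 5123, 4835 and 4699 CPM in chow livers without overlap, and the 34 accessory members overlapped. The 4 of ATP synthase gave 2522, 2363 and 2384 CPM of the core sums in HFD livers. In chow livers they gave 2993, 2843 and 2745 CPM. A sum of the core members without ATP synthase was not made. Without TMM scaling the core sums overlapped too, while those of complex V, 10.7% lower on average, did not.

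After TMM scaling, the level of most members was highest in the same library of each diet. HFD replicate 1 had the highest CPM of the HFD livers in 47 of 50 members, against 43.2% of all tested genes, and chow replicate 1 was the highest of the chow livers in 41 of 50, against 35.9% of all tested genes. Without TMM scaling these numbers were 32 and 40 of 50. The coefficient of variation between livers of 1 diet had a median over members of 10.3% in HFD livers and 4.16% in chow livers. Without HFD replicate 1, edgeR called 21 members lower and 1 higher; without HFD replicate 2, it called 5 lower and 1 higher, and without HFD replicate 3, 10 lower and 8 higher. Without chow replicate 2 it called 5 lower and 0 higher, and without chow replicate 3, 9 lower and 0 higher. No called member changed sign in any of these fits.

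**Figure D3:**
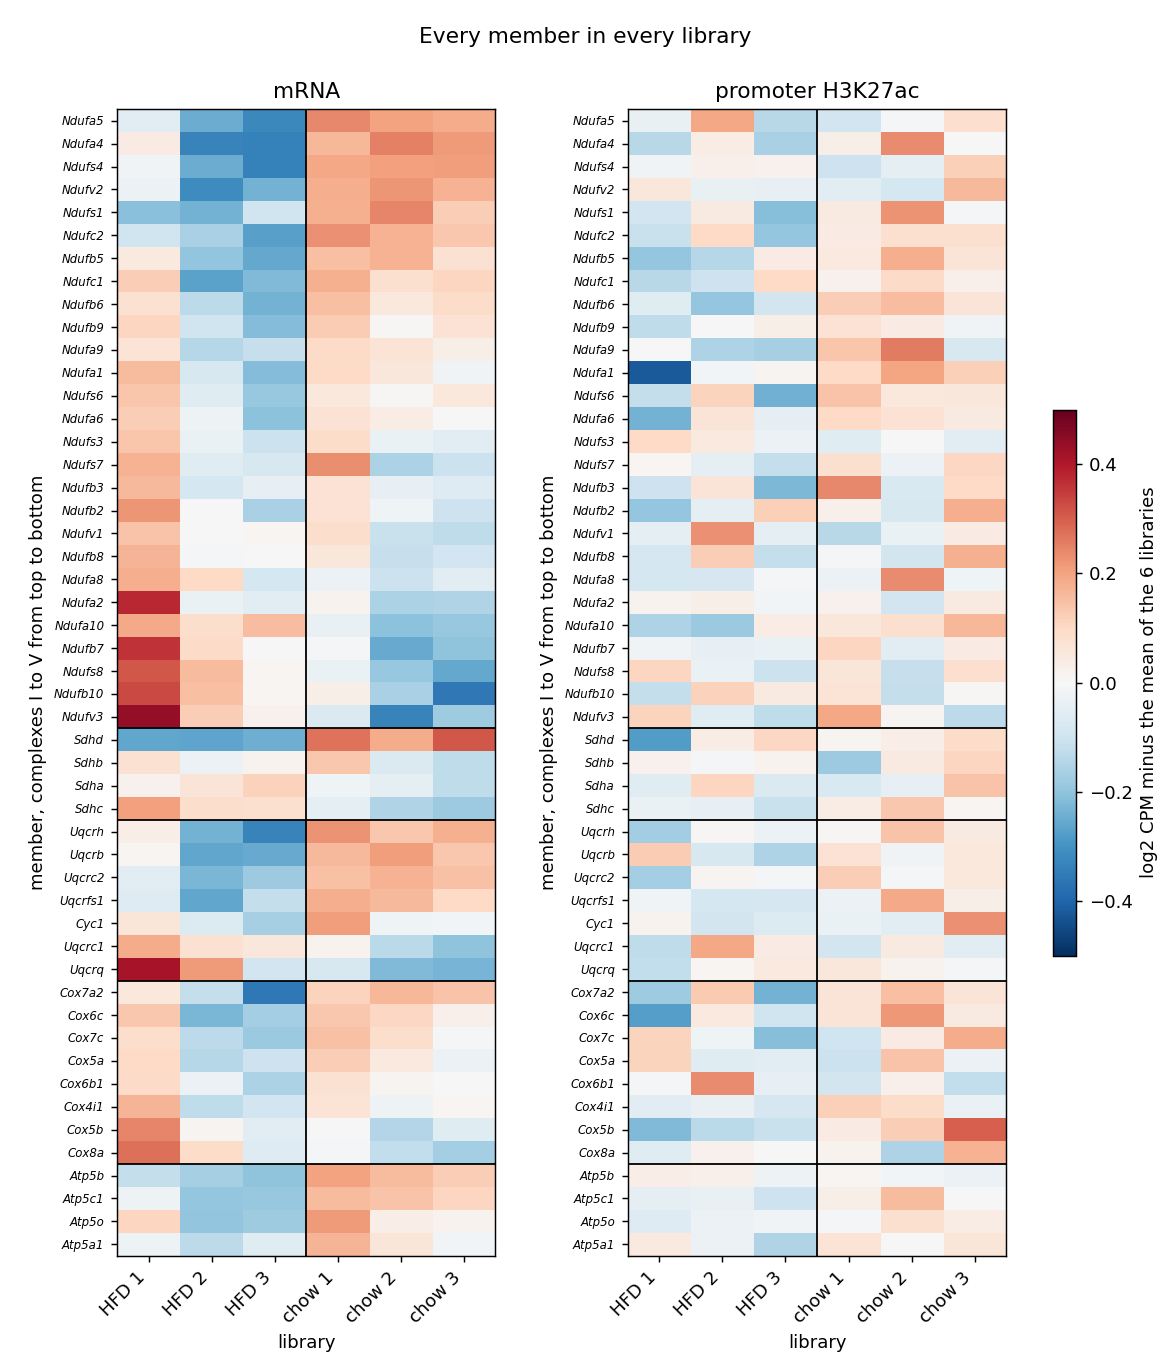
log2 CPM of each member in each library, minus its mean over the 6 libraries, for mRNA (left) and promoter H3K27ac (right), with HFD livers 1 to 3 left of chow livers 1 to 3 and black lines between complexes I to V. In the mRNA panel, on the TMM scale, HFD 1 is the highest HFD column in 47 of 50 members, and every member called lower is redder in each chow column than in each HFD column.

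Acetylation at most promoters of the members had a fold change a little below 0, but no promoter passed the test. Of the 50 promoters 0 were lower and 0 higher at an adjusted p of 0.05 in edgeR's quasi-likelihood test and in DESeq2, against 0.235% of all 20891 tested promoters (0.0479% lower and 0.187% higher). At an unadjusted p under 0.05 there were 3 members, all lower, which is 6% of them, against 14.0% of all promoters. The log2 fold change was below 0 at 40 of 50 promoters, against 50.6% of all promoters, and 36 to 43 of 50 were below 0 under the alternatives tried. The median was -0.09 over the members and -0.0030 over all promoters. At 10 promoters every HFD liver lay below every chow liver (9.73% of all promoters), and at 0 every HFD liver lay above (9.77%).

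The acetylation summed over member promoters did not overlap between diets. It was 3586, 3772 and 3621 CPM in HFD livers, against 3839, 3895 and 3913 CPM in chow livers, 5.74% lower on average. The sum for complex I was 1904, 2009 and 1922 CPM in HFD livers, against 2071, 2061 and 2081 CPM in chow livers. The sum for complex IV was 469, 499.9 and 463 CPM in HFD livers, against 501, 524 and 520.1 CPM in chow livers. In both the HFD livers were all lower, as they were for complexes III and V, while complex II overlapped. Without TMM scaling, member promoters took 0.365% to 0.375% of the counts in HFD livers and 0.381% to 0.385% in chow livers, and the sums of complex V overlapped as well.

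**Figure D4:**
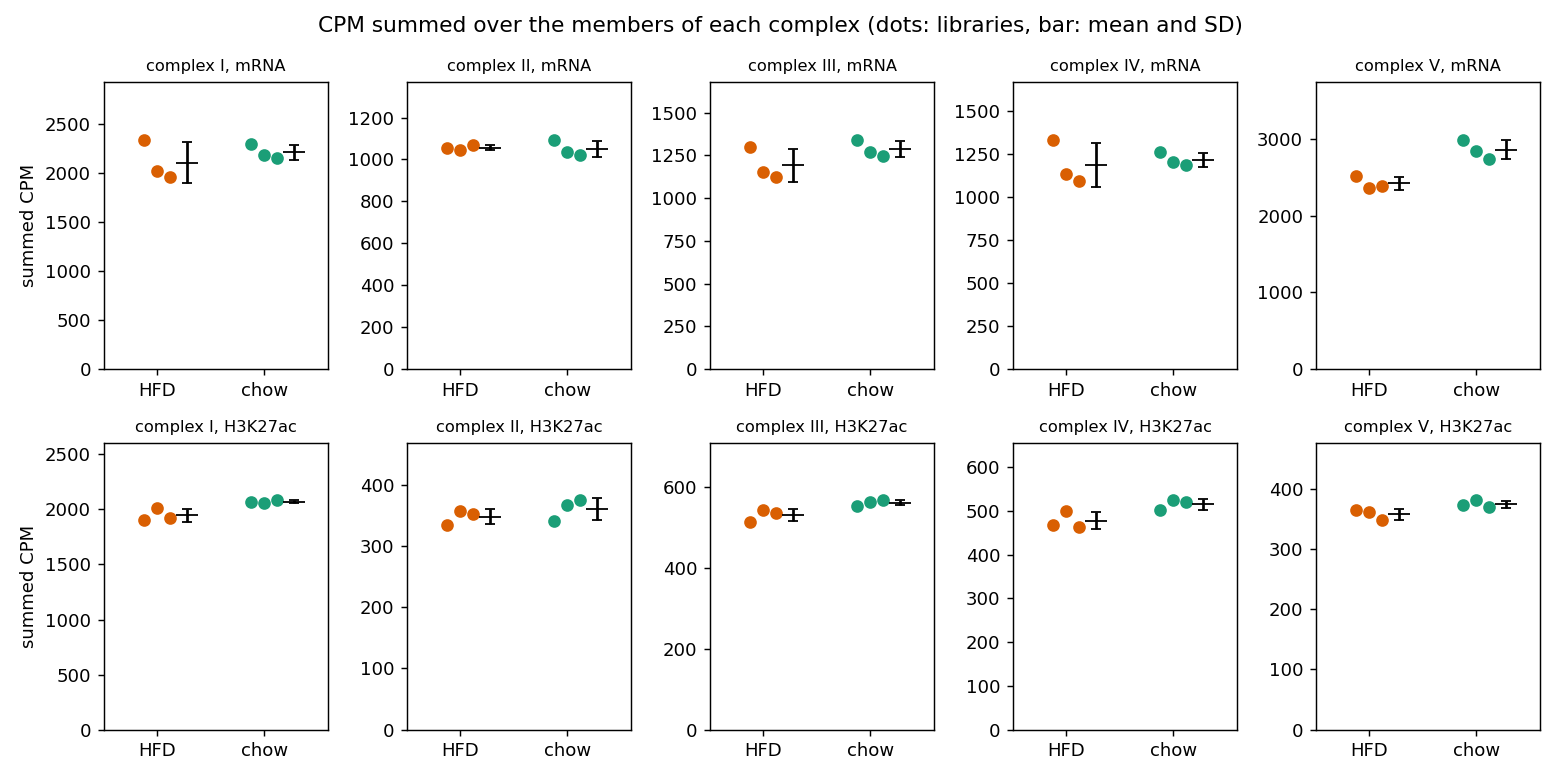
CPM summed over the members of each complex in each library, mRNA in the upper row and promoter H3K27ac in the lower row, HFD livers left of chow livers, with the mean and SD as black bars. For mRNA only complex V has groups that do not overlap, and for H3K27ac complex II is the one that overlaps.

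Cox5b, a zinc-binding subunit of complex IV, had the largest promoter difference, with 62.2, 66.1 and 67.2 CPM in HFD livers, against 74.6, 79.1 and 89.3 CPM in chow livers. All HFD livers were lower (log2 fold change -0.31, SE 0.0945, adjusted p = 0.138), while its mRNA had 146, 124 and 119 CPM in HFD livers, against 123, 111 and 118 CPM in chow livers. The mRNA groups overlapped and lay on the other side of 0 (log2 fold change 0.14, SE 0.0953, adjusted p = 0.286). Ndufb6, a membrane-arm subunit of complex I, was next by p-value, with 65.2, 59.5 and 63.9 CPM in HFD livers, against 74.1, 75.7 and 71.0 CPM in chow livers (log2 fold change -0.23, SE 0.0910, adjusted p = 0.252). Ndufa10 had 74.7, 73.0 and 85.1 CPM in HFD livers, against 86.2, 87.7 and 93.0 CPM in chow livers. Its promoter was lower in all HFD livers (log2 fold change -0.20, SE 0.0912, adjusted p = 0.337) although its mRNA rose.

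At the members with the largest mRNA calls the acetylation differed little. The Sdhd promoter had 80.6, 100.4 and 105 CPM in HFD livers, against 98.6, 100.2 and 104 CPM in chow livers. HFD replicate 1 was the lowest and the other livers overlapped (log2 fold change -0.06, SE 0.0970, adjusted p = 0.805). The Ndufa5 promoter had 56.8, 66.7 and 52.9 CPM in HFD livers, against 54.5, 58.0 and 61.8 CPM in chow livers, again with overlap (log2 fold change 0.02, SE 0.106, adjusted p = 0.947). The Ndufv3 and Ndufs8 promoters had log2 fold changes of -0.07 and -0.04 (95% intervals -0.30 to 0.16 and -0.24 to 0.16). The Sdhc promoter had 85.6, 85.3 and 81.2 CPM in HFD livers, against 90.0, 96.3 and 88.3 CPM in chow livers. All its HFD livers were lower (log2 fold change -0.12, SE 0.0877, adjusted p = 0.574), in the direction opposite to its mRNA.

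The promoters with the most reads in each complex were not called either. The Ndufa6 promoter, of an accessory subunit of complex I, had 109, 134 and 124 CPM in HFD livers, against 138, 135 and 132 CPM in chow livers (log2 fold change -0.13, SE 0.0958, adjusted p = 0.580). The Sdhb promoter had 115, 113 and 115 CPM in HFD livers, against 100.3, 117 and 123 CPM in chow livers, and the Sdha promoter 51.8, 58.2 and 51.3 CPM in HFD livers, against 51.2, 52.5 and 59.5 CPM in chow livers. Both overlapped, with log2 fold changes of 0.02 and -0.02. The Uqcrh promoter had 97.1, 109.7 and 107 CPM in HFD livers, against 109.9, 121 and 113 CPM in chow livers. The Cox4i1 promoter had 98.1, 99.6 and 96.3 CPM in HFD livers, against 111, 109 and 99.8 CPM in chow livers. In both the HFD livers were lower without overlap, and neither passed the test (adjusted p = 0.607 and 0.590, edgeR).

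Among the promoters of ATP synthase, Atp5b had 104, 103 and 99.4 CPM in HFD livers, against 102, 100.2 and 99.0 CPM in chow livers. Its mRNA fell while its acetylation overlapped (log2 fold change 0.02, SE 0.0874, adjusted p = 0.940; 95% interval -0.16 to 0.20). Atp5c1 had 95.1, 95.9 and 91.6 CPM in HFD livers, against 100.3, 109.6 and 98.6 CPM in chow livers, and Atp5o had 74.2, 76.0 and 76.7 CPM in HFD livers, against 77.4, 82.1 and 79.7 CPM in chow livers. In both the HFD livers were lower without overlap (log2 fold change -0.12, SE 0.0892, adjusted p = 0.579 for Atp5c1 and log2 fold change -0.07, SE 0.0868, adjusted p = 0.754 for Atp5o). Atp5a1 had 92.1, 87.1 and 80.1 CPM in HFD livers, against 93.3, 89.0 and 92.8 CPM in chow livers, with overlap (log2 fold change -0.10, SE 0.0891, adjusted p = 0.651).

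The mRNA and acetylation differences of a member were weakly related. Across the 50 members Pearson's r of the log2 fold changes was 0.161 and Spearman's rho 0.192, against 0.213 and 0.240 across the 12791 genes tested in both tables; genes are not independent replicates, and no test was made. The promoter median was -0.10 for the 13 members whose mRNA fell, -0.09 for the 4 whose mRNA rose and -0.08 for the 33 others. The promoter fold change was below 0 in 10 of the 13, in 4 of the 4 and in 26 of the 33.

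**Figure D5:**
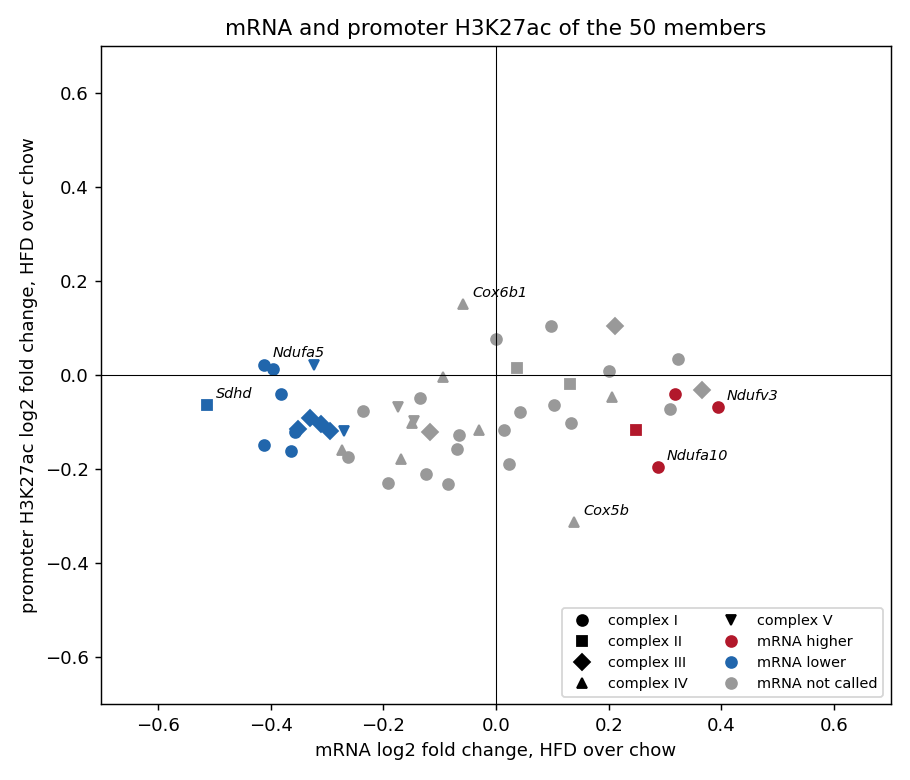
Promoter H3K27ac log2 fold change against mRNA log2 fold change, HFD over chow, for the 50 members, with marker shape for the complex and colour for the mRNA call. Most points lie below 0 on the vertical axis (40 of 50), both for members whose mRNA fell (blue) and for the 4 whose mRNA rose (red), and r is 0.161.

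The authors' deposited table of mRNA differences called 16 of the members lower and 6 higher, against 17.9% and 16.8% of the genes tested here. Of the 13 members that fell here, 10 were called lower in the authors' deposited table as well, and 3 of the 4 that rose were called higher. No call was opposite. Ndufs4, Ndufv2 and Uqcrb fell here only, with log2 fold changes there of -0.20, -0.12 and -0.06, and Ndufs8 rose here only (0.10 there). The authors' deposited table called 6 further members lower and 3 further members higher. Among these 6 was Cyc1 (log2 fold change -0.38), with the lowest adjusted p of any member there. The authors' deposited table called all 4 members of complex V lower and none of those grouped as complex IV. It called Ndufa4 lower. The log2 fold changes of the authors' deposited table differed from those given here by -0.28 to 0.27, and the sign differed for 8 members. For the pairs compared above, they were -0.12 and -0.11 for Ndufv2 and Ndufv1, and -0.15 and 0.02 for Uqcrc2 and Uqcrc1. For Sdhd and Sdhc they were -0.48 and 0.27, and for Atp5b and Atp5a1 -0.35 and -0.19. The authors' deposited table of promoter differences called 0 members lower and 0 higher, against 0.0527% and 0.177% of the promoters tested here, and the lowest adjusted p of a member in the authors' deposited table was 0.304.

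Other genes of the pathway gave context, from lists chosen with earlier results of these data known. The counts over these lists stand against 17.6% of all tested genes called lower and 18% called higher. Of 30 tested further nuclear genes listed with complexes I to V, 8 fell and 2 rose. The list also holds genes that are not subunits, such as the inhibitor Atpif1, 1 of the 2 that rose. Atpif1, which inhibits ATP hydrolysis by ATP synthase, had 8.49, 9.06 and 11.1 CPM in HFD livers, against 5.35, 5.31 and 4.09 CPM in chow livers. It rose without overlap (log2 fold change 0.95, adjusted p = 0.00299). Atp5k, the small subunit e, also rose (log2 fold change 0.41, adjusted p = 0.00989). Atp5f1, the stalk subunit b, had 243, 223 and 223 CPM in HFD livers, against 302, 308 and 300.4 CPM in chow livers and fell (log2 fold change -0.40, adjusted p = 0.00451). Atp5s, also called factor B, fell (log2 fold change -0.61, adjusted p = 0.00823), as did Ndufa12 of complex I (log2 fold change -0.35, adjusted p = 0.0225) and Uqcr10 of complex III (log2 fold change -0.24, adjusted p = 0.0421). In the complex IV list, Cox7a2l fell (log2 fold change -0.31, adjusted p = 0.0109). Cox6b2, the testis form of a complex IV subunit, was near the detection limit, with a mean of 0.162 CPM in HFD livers and 1.24 CPM in chow livers (log2 fold change -2.92, adjusted p = 0.00235).

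Among the genes that feed electrons into the chain, Cycs, Etfdh and Sqrdl had larger differences than any member. Cycs, cytochrome c, which carries electrons from complex III to complex IV, had 140.4, 114 and 124 CPM in HFD livers, against 218, 234 and 217 CPM in chow livers. It fell in every HFD liver (log2 fold change -0.82, adjusted p = 0.000501, edgeR). Etfdh, which passes electrons from fatty acid oxidation to ubiquinone, had 400.2, 416 and 400.3 CPM in HFD livers, against 686, 732 and 704 CPM in chow livers and fell (log2 fold change -0.80, adjusted p = 0.000310). Sqrdl, the sulfide-quinone oxidoreductase, had 138, 133 and 152 CPM in HFD livers, against 81.8, 81.7 and 89.0 CPM in chow livers and rose (log2 fold change 0.75, adjusted p = 0.000450). Of 7 such carriers tested, 4 fell and 1 rose. In the tricarboxylic acid cycle 5 of 14 fell and 1 rose. Fh1, fumarase, which acts just after complex II, had 218, 194 and 172 CPM in HFD livers, against 372, 446 and 429 CPM in chow livers (log2 fold change -1.09, adjusted p = 0.000336). Idh3a, a subunit of the NAD-dependent isocitrate dehydrogenase, fell (log2 fold change -0.95, adjusted p = 0.000238), and Suclg2, a subunit of succinyl-CoA synthetase, rose (log2 fold change 0.39, adjusted p = 0.00614).

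Of 19 tested nuclear regulators of respiratory genes 9 fell and 2 rose, against the same background of 17.6% lower and 18% higher. Ppargc1a, the coactivator PGC-1alpha, had 11.6, 9.88 and 13.0 CPM in HFD livers, against 15.6, 17.2 and 17.5 CPM in chow livers and fell (log2 fold change -0.54, adjusted p = 0.00992), while its relative Ppargc1b rose (log2 fold change 0.74, adjusted p = 0.00636). Gabpa and Gabpb1, the DNA-binding and activating subunits of GABP, fell, with log2 fold changes of -0.36 and -0.79 and adjusted p of 0.0175 and 0.00176. Nrf1 (log2 fold change -0.39, adjusted p = 0.0378) and Yy1 (log2 fold change -0.23, adjusted p = 0.0439) also fell. Tfam, which maintains and transcribes mitochondrial DNA, fell too (log2 fold change -0.29, adjusted p = 0.0222). Ppara, the fatty acid sensing nuclear receptor, rose (log2 fold change 0.31, adjusted p = 0.0314). Esrra, a nuclear receptor that works with PGC-1alpha, was not called (log2 fold change 0.17, adjusted p = 0.188).

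Factors that assemble the complexes were mixed, with 3 of 33 lower and 5 higher. Ndufaf4, an assembly factor of complex I, fell (log2 fold change -0.60, adjusted p = 0.00373) and Cox11, which brings copper to complex IV, fell (log2 fold change -0.51, adjusted p = 0.00702). Ndufaf5, listed in the table under the older symbol 2310003L22Rik, rose (log2 fold change 0.82, adjusted p = 0.0145), as did Cox18, which inserts a complex IV subunit into the membrane (log2 fold change 0.78, adjusted p = 0.00586). Of 10 genes of coenzyme Q synthesis Coq3 fell (log2 fold change -0.44), and Coq4 and Coq2 rose (log2 fold changes 0.51 and 0.41). Of 10 carriers and uncoupling proteins 3 fell and 2 rose, led by Ucp2, an uncoupling protein family member, with 35.1, 52.1 and 52.5 CPM in HFD livers, against 21.7, 20.9 and 26.6 CPM in chow livers (log2 fold change 1.02, adjusted p = 0.00258). Slc25a10, the dicarboxylate carrier, rose (log2 fold change 0.66), and the outer membrane channels Vdac3 and Vdac2 fell (log2 fold changes -0.38 and -0.33). Of 30 mitochondrial ribosomal protein genes 4 fell, led by Mrpl15 (log2 fold change -0.55) and Mrps18c (log2 fold change -0.38), and Mrps12 rose (log2 fold change 0.36).

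At the promoters of these lists the log2 fold change was below 0 at 28 of 34 of the further genes listed with the complexes, 26 of 34 of assembly factors, 24 of 30 of mitochondrial ribosomal proteins and 18 of 19 of the nuclear regulators, against 50.6% of all tested promoters. It was below 0 at 7 of 7 promoters of electron carriers, 9 of 10 of coenzyme Q synthesis, 11 of 14 of the tricarboxylic acid cycle and 6 of 10 of mitochondrial carriers and uncoupling proteins. The list medians ran from -0.13 (coenzyme Q synthesis) to -0.04 (mitochondrial carriers), no promoter of these lists was called, and no test of the lists was made. The median was -0.09 for the members.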

How the data were processed

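Liver mRNA and H3K27ac ChIP libraries, 3 per diet each, were used as raw counts per gene and per gene promoter, deposited by the authors as whole numbers and mapped to mm9, per the submitters' processing notes. Those notes name TopHat 1.4.0, HTSeq, bedtools and DESeq2 1.0.18 for mRNA, and Bowtie 0.12.7, MACS 1.4.0rc2, bedtools and DESeq2 for ChIP. The authors' deposited tables of differences hold a mean normalized signal, log2 fold changes, p-values and adjusted p-values. The promoter width and how reads shared by gene copies were counted are not given in the sources used here.

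Each table was fitted whole with edgeR 4.0.16 in R 4.3.3, after filterByExpr and TMM scaling, with the two-sided quasi-likelihood test of HFD over chow and Benjamini-Hochberg adjustment. Promoter windows of 300 bases came from RefSeq (GRCm38.p6). The members and gene lists were chosen with earlier results of these data known. Per-library values are given, within each complex, for called members with the 3 largest changes in each direction, for the member with the most reads and for all of complexes II and V; from each list the 2 largest called changes in each direction are named, with 6 regulators. Alternatives were other scaling, DESeq2 1.42.0, no filter, a replicate block, a pancreas covariate and each library left out. Intervals cover the spread between libraries. The tests were tried on simulated counts.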

Additional observations from a re-analysis of the deposited data

How the results depend on the processing

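Of the 13 members lower and 4 higher in mRNA, the numbers were 12 and 9 with total counts (which moved the centre of all tested genes to a log2 fold change of 0.10), 13 and 5 with DESeq2, 13 and 3 without the filter, and 13 and 4 with DESeq2 size factors. Leaving out 1 library gave 5 to 21 lower and 0 to 8 higher, and 2899 to 5163 genes called in all (4590 with all libraries). With the mean log2 CPM of the pancreas list as a covariate, which follows diet, 0 members were lower, 0 higher and 937 genes were called in all, while the members' median fold change was -0.13 (-0.09 without the covariate), and the cause was not tested. No member promoter was called under any alternative, with a lowest adjusted p of 0.0625. Over all promoters 49 were called, and 0 to 736 without 1 library. Summing promoter rows of 1 symbol was not run, because each symbol has 1 row. Complex medians of mRNA with total counts are given with the result. Differences smaller than the intervals given were not detectable with 3 livers per diet.

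The deviations of same-numbered HFD and chow mRNA libraries correlated at 0.0354, -0.0409 and 0.136. Those of promoter libraries correlated at 0.0919, -0.0059 and 0.0437. Differently numbered pairs also had correlations of both signs. The highest mRNA value was that of a same-numbered pair, and the highest promoter value was that of a differently numbered pair. Whether equal replicate numbers mark a shared batch was not tested. With the replicate block, 13 members were lower and 7 higher in mRNA, and 4462 genes were called in all. In that fit 470 promoters were called, against 49 without the block, none of them a member's.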
